A study of Homo sapiens with 6 samples.

Results

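The DNA replication machinery was examined in human cells as a list of 44 genes, chosen by name, out of 19974 protein-coding genes on chromosomes 1 to 22 and X. A gene was counted in a library when that library's deposited peak list held a peak within 1000 bp of either end of the gene, on build GRCh38. The assay was ATAC-seq, in which a transposase inserts adapters into DNA that is not packed away, so that a peak marks accessible chromatin. It was run on U937, an established human monocytic line derived from a histiocytic lymphoma. The 3 control lines had been transduced with a control plasmid, and the 3 ΔNSPs lines were independent clones in which the neutrophil serine protease genes CTSG, ELANE and PRTN3 had been depleted together. All 6 lines had been selected with geneticin, and the cells of all 6 were DNase treated, washed and cryopreserved with DMSO before the assay. Each library therefore stands for 1 line.

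Replication starts in these steps. The origin recognition complex (ORC) binds origins, and CDC6 and CDT1 then load the MCM helicase ring on DNA, which licenses the origin. CDC45 and the GINS complex turn the ring into a working helicase, primase and the polymerases copy the strands, the sliding clamp PCNA tethers polymerases, and ribonucleotide reductase and thymidylate synthase supply the nucleotides. Many of these genes are known to be transcribed through E2F factors as cells enter S phase.

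The 6 peak lists differed in length by orders of magnitude, and this touches every result. On the assembled chromosomes the control lists held 13, 4 and 2 peaks, and the clone lists held 14262, 24981 and 2188 peaks. A peak near a gene end was listed for 1, 0 and 0 genes in control lines 1, 2 and 3. Clone 1 had such a peak at 7813 genes (39.1% of all genes tested), clone 2 at 5909 (29.6%) and clone 3 at 1308 (6.55%). Read depth per library is unknown, so a missing peak in a control line is the absence of a list entry and not a measured closed promoter. Peak calling depth and genotype cannot be told apart in the control lists. Of 10 myeloid marker genes, 2 (ITGAM and CD68) had a peak in at least 2 clones, SPI1, ITGB2, LYZ and MPO had none in any clone, and the hepatocyte, epithelial and fibroblast markers had none in at least 2 clones. The T cell marker CD3E had one in clones 1 and 2 and the B cell marker CD79A in clone 2, and the other T and B cell markers had none.

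None of the 44 replication genes had a peak in any control line. Clone 1 had a peak at 32 of them (72.7%), clone 2 at 24 (54.5%) and clone 3 at 4 (9.09%). A peak in at least 2 clones and no control line was found at 21 of 44 genes (47.7%), against 23.3% of all genes. A peak in all 3 clones was found at 4 of 44 (9.09%), against 5.40% of all genes. The share fell below background, to 1 of 44 (2.27%) against 4.17%, when only peaks with a fold of 4 or more were counted, and the count fell from 21 to 4 without clone 1 or without clone 2 (9.09%, against 5.63% and 6.21%). Over all deposited peaks the replication genes stood above the background share in each clone list, and no test of that difference was made because the genes were chosen by name with results known. Shares from counts of 1 or 4 genes, that of clone 3 among them, rest on too few genes to read a direction from. Only 19 of the 44 genes lie on a chromosome with any control peak, and the nearest such peak lay 548 kb away, at TYMS.

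**Figure D1:**
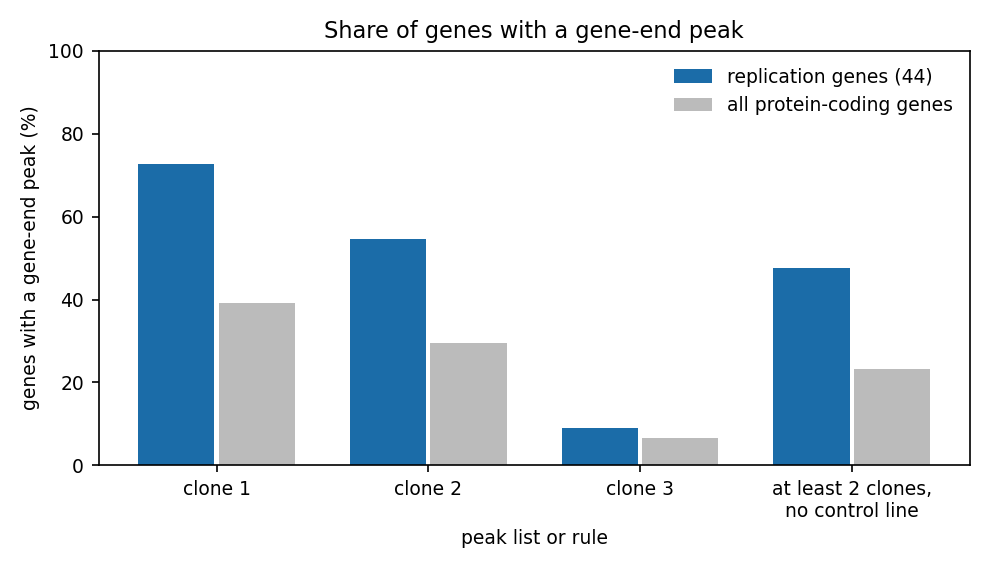
Share of the 44 replication genes (blue) and of all 19974 protein-coding genes (grey) with a peak within 1000 bp of a gene end, in percent, for each clone list and for genes with a peak in at least 2 clones and no control line. The blue bar is the higher in every group, from 72.7% against 39.1% in clone 1 to 9.09% against 6.55% in clone 3.

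For single genes the 3 against 3 design has little reach. An exact two-sided permutation test of peak presence, over 20 assignments of the libraries, gave p = 0.1 for a gene with a peak in 3 clones, p = 0.4 for 2 clones and p = 1 for 1 clone. The smallest p this design allows is 0.1, every Benjamini-Hochberg adjusted p over the 19974 genes was 1, and 0 genes passed, with 0 at an unadjusted p under 0.05. The statements on genes below are counts of lists in which a peak was entered. The labels describe separate lines but no separate cultures of a line, so such a p measures the spread between lines only.

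**Figure D2:**
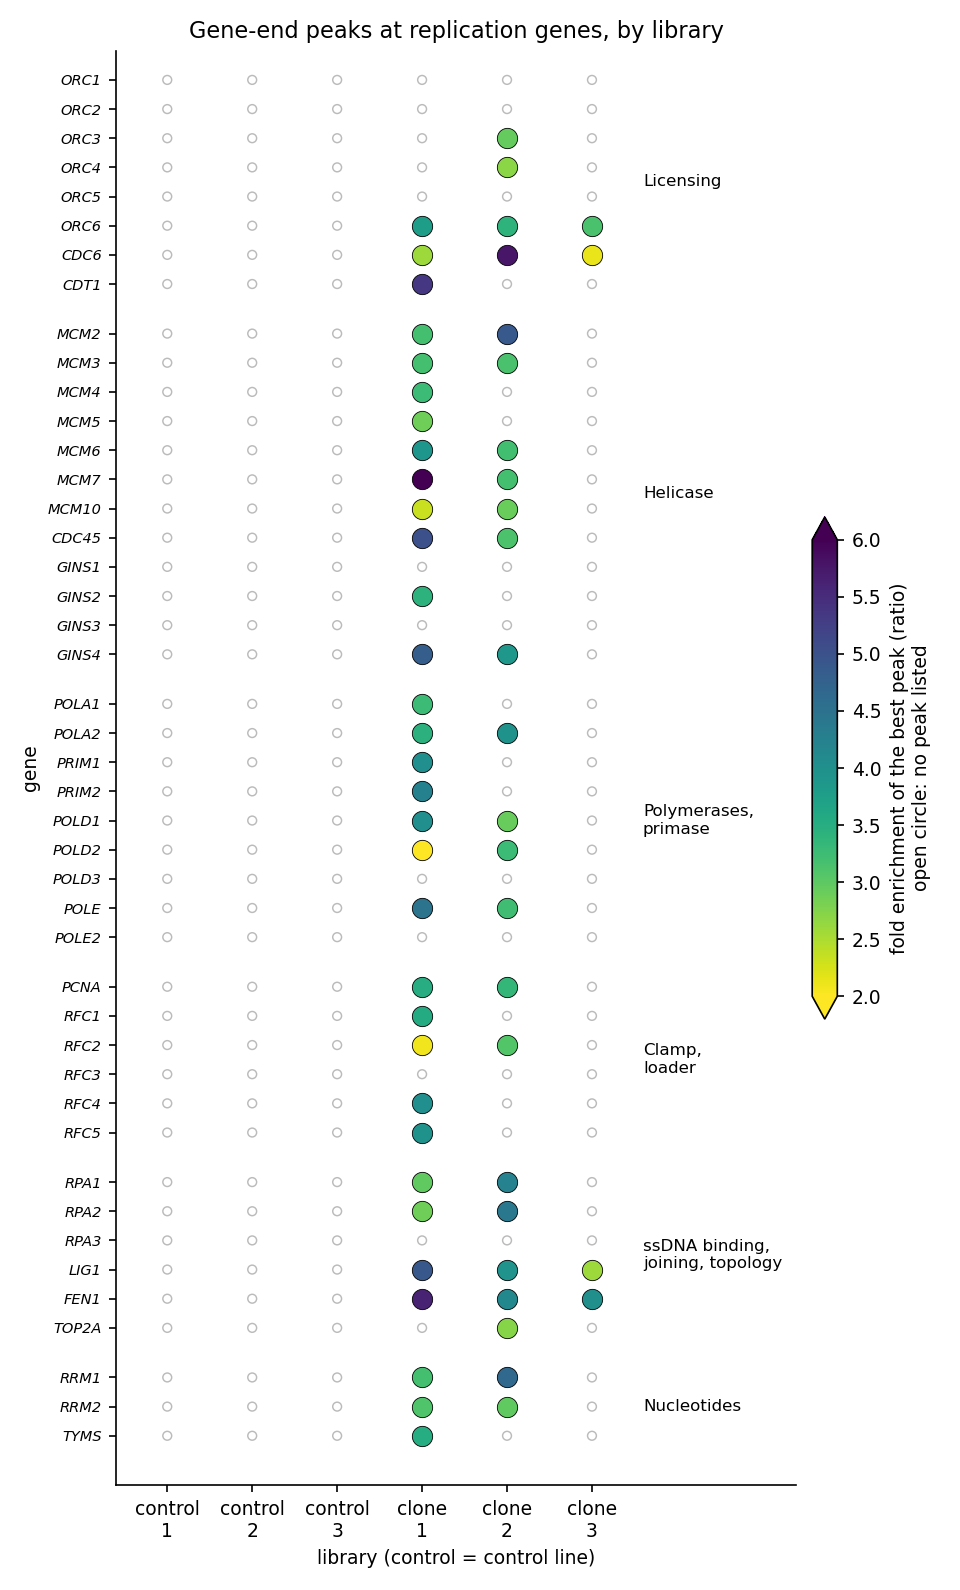
Fold enrichment of the best peak (by −log10 q) at each of the 44 replication genes (rows, grouped by role) in the 6 libraries (columns), with open circles where no peak was listed. The 3 control columns are empty, the clone 1 column is the fullest with 32 genes, and clone 3 has filled circles at ORC6, CDC6, LIG1 and FEN1 only.

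A peak in every clone was found at 4 genes of 2 roles, licensing (ORC6 and CDC6) and strand joining (LIG1 and FEN1). The stretch from 250 bases before to 50 bases after each start is shown because these are the members the 3 clones have in common, with capitals marking the bases that lay under a peak in at least 2 clones. The sequences are from RefSeq, build GRCh38.p14, each written 5′ to 3′ on the gene's strand: ORC6 at chr16:46689409-46689708 on the plus strand, CDC6 at chr17:40287629-40287928 on the plus strand, LIG1 at chr19:48170295-48170594 on the minus strand and FEN1 at chr11:61792661-61792960 on the plus strand.
ORC6: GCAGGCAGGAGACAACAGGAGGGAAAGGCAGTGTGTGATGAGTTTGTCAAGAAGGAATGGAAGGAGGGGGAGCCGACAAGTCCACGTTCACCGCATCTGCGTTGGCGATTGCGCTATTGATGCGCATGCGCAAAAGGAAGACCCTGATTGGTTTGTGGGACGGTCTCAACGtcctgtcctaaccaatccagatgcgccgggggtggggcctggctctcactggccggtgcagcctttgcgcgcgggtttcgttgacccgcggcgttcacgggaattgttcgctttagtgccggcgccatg
CDC6: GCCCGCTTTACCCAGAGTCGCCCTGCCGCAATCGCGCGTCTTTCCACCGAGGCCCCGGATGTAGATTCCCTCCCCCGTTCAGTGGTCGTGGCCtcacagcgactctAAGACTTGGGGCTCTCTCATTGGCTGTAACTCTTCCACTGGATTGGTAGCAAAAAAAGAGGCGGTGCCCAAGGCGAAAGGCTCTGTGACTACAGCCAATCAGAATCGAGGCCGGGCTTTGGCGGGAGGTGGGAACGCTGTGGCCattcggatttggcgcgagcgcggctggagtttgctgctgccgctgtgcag
LIG1: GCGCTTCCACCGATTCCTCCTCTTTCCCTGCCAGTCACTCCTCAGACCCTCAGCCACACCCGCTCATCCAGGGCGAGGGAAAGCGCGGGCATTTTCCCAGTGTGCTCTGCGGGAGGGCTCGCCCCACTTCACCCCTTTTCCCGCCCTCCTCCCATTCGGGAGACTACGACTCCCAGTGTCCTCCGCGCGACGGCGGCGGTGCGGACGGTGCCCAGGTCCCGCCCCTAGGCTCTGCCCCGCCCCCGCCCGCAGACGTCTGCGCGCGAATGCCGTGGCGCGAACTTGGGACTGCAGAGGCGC
FEN1: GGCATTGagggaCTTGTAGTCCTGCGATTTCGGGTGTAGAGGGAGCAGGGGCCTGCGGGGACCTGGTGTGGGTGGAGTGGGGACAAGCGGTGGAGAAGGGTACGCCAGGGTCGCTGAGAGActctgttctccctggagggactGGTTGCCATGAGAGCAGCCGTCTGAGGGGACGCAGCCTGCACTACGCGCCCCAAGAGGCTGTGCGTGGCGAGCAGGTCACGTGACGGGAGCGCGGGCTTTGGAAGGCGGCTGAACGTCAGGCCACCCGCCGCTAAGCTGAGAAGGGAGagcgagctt

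ORC6, the smallest subunit of the origin recognition complex, had peaks at chr16:46689148-46689693 in clone 1, chr16:46689162-46689505 in clone 2 and chr16:46689373-46689579 in clone 3. The authors' fold enrichment over local background was 3.79, 3.41 and 3.15 in clones 1, 2 and 3. The 3 peaks shared 97 of the 300 bases shown, and 171 lay under at least 2 of them. The same interval lies within 1000 bp of VPS35, so these peaks cannot be assigned to ORC6 alone.

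CDC6, the ATPase that brings the MCM ring to ORC, had peaks with a fold of 2.59 in clone 1 and 2.14 in clone 3, and a pair of peaks with folds of 5.77 and 3.76 in clone 2. The clone 2 peaks left a gap between them that the clone 1 peak covered whole and the clone 3 peak in part, and the lower-case bases inside the capitals lay under the clone 1 peak alone. In all, 81 bases of the stretch were under a peak in every clone. Its clone 3 peak was among the weakest of that list, at rank 2121 of 2188 by −log10 q.

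LIG1, the ligase that seals Okazaki fragments, had folds of 4.92, 3.94 and 2.58 in clones 1, 2 and 3. All 300 bases shown were under the clone 1 and clone 2 peaks, and 178 were also under the clone 3 peak. ZSWIM9 shares the interval.

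FEN1, the flap endonuclease that trims those fragments, had a fold of 5.61 in clone 1, of 4.14 and 3.52 at a pair of peaks in clone 2, and of 4.01 in clone 3. The clone 2 peaks lay on either side of the clone 3 peak with a gap of 5 bp on the closer side, so no base of the stretch was under a peak in all 3 clones. The reads behind them were few, at an implied 21 in clone 1, 17 and 15 in clone 2 and 16 in clone 3 at the summit. TMEM258 shares the interval.

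**Figure D3:**
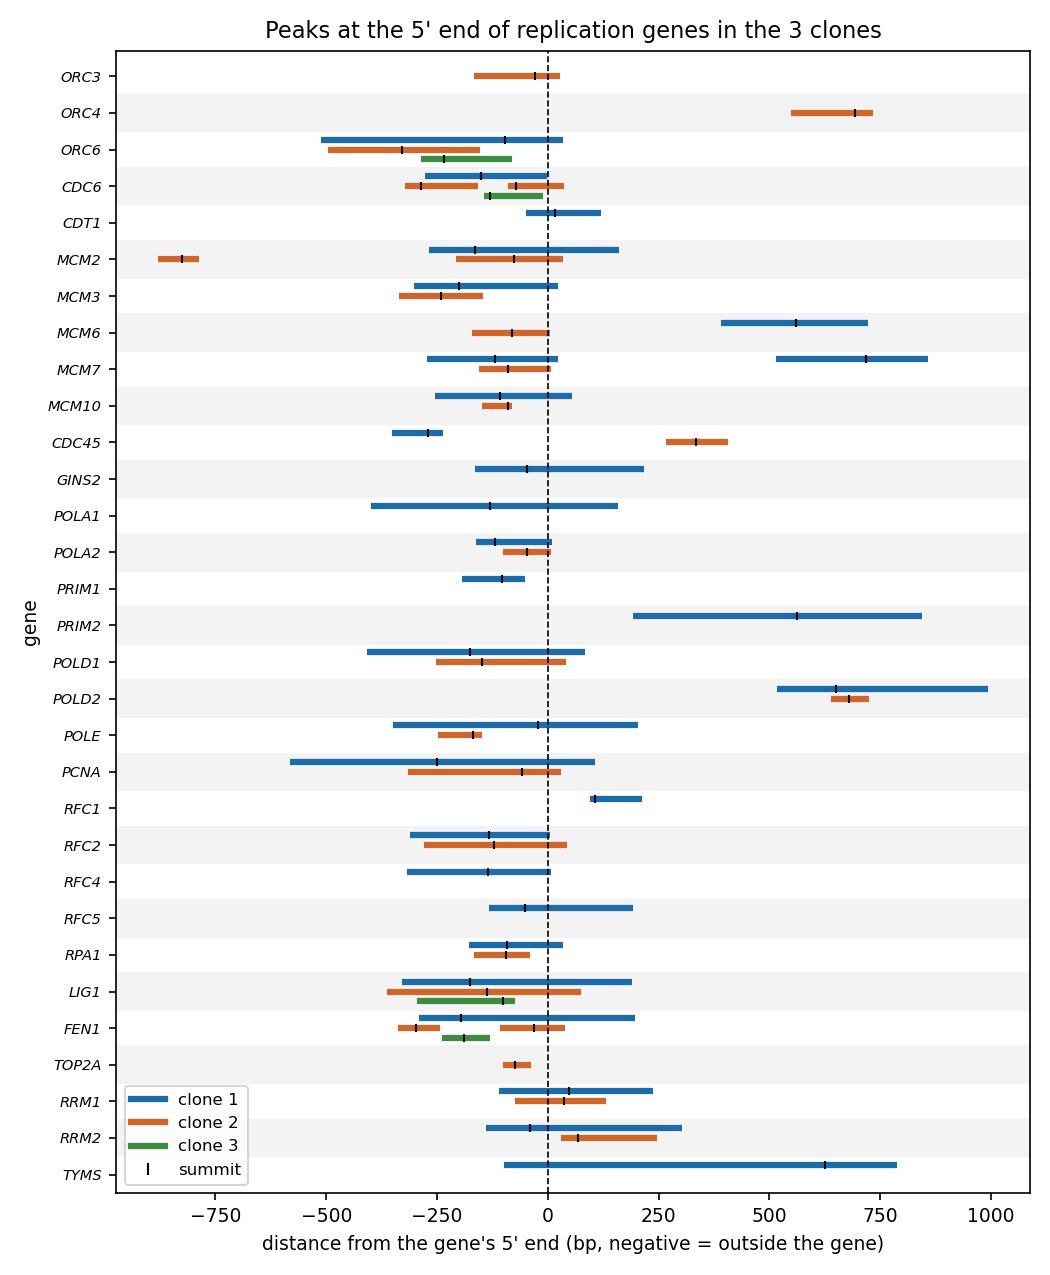
Position of each peak at the 5′ end of the replication genes with a known strand, as distance from the gene's 5′ end in bp (negative is outside the gene), with clone 1 in blue, clone 2 in orange, clone 3 in green and a black tick at the summit. The summit is within 250 bp of the dashed line for 23 of 29 peaks in clone 1 and 18 of 25 in clone 2, and the clone 2 bars at FEN1 and CDC6 lie apart from each other.

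Among the 8 licensing genes, 3 had a peak in clone 1, 4 in clone 2 and 2 in clone 3. Over all genes the shares were 39.1%, 29.6% and 6.55%. ORC6 and CDC6 were the 2 (25.0%) with a peak in at least 2 clones, a share near the 23.3% of all genes. CDT1, the partner of CDC6 in loading the helicase, had a peak in clone 1 only, with a fold of 5.37 from an implied 13 reads over a background of 1.61. ORC3 and ORC4, both core ORC subunits, had a peak in clone 2 only, with folds of 2.94 and 2.69. ORC1, ORC2 and ORC5 had none near a gene end. For ORC1, the ATPase subunit, clone 2 had a peak at chr1:52404460-52404608 with a fold of 3.75, and its summit lay at −136 bp from the start given in the RefSeq promoter table, which is inside the annotated gene and out of reach of the gene-end rule. Licensing thus held 2 of the 4 genes with a peak in every clone, while its share in at least 2 clones was at the background level.

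The helicase group had peaks at 10 of 12 genes in clone 1, 7 in clone 2 and 0 in clone 3. The shares of all genes were 39.1%, 29.6% and 6.55%. In both clone 1 and clone 2, 7 (58.3%) had a peak, where 23.3% of all genes had one in at least 2 clones. These were MCM2, MCM3, MCM6 and MCM7 of the ring, the ring-associated factor MCM10, the activator CDC45 and the GINS subunit GINS4. MCM3 was the deepest of them, with an implied 100 reads at the summit in clone 1 and 94 in clone 2, and folds of 3.19 and 3.15. MCM2 had a fold of 3.20 in clone 1 and of 4.90 and 6.41 in clone 2, where the latter peak had its summit at −825 bp, outside the gene. MCM10 had folds of 2.34 and 2.92.

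MCM7 had the highest fold of any replication gene in clone 1, 7.28, at a peak 515 to 859 bp inside the gene from its 5′ end. This peak lay over 1 of the 3 starts that the RefSeq promoter table gives for it. The peaks over its outermost start were lower, with a fold of 2.30 in clone 1 and 3.19 in clone 2, and clone 1 also had a peak at the 3′ end with a fold of 3.76, near COPS6. At MCM6 and CDC45 the peaks of clones 1 and 2 did not overlap: they lay 384 bp apart at MCM6 (folds of 3.90 and 3.21) and 503 bp apart at CDC45 (folds of 5.03 and 3.14), where the clone 2 peak lay over another of the 3 starts in that table. GINS4 had its best peak at the high-coordinate end of the gene, with a fold of 4.82 in clone 1 and of 3.86 and 3.50 in clone 2. Clone 1 also had a peak at its low-coordinate end, with a fold of 2.51, and clone 2 had none there. The promoter table gives no strand for GINS4, so which end is its 5′ end was not set. MCM4 (folds of 3.87 and 3.28 at a pair of peaks shared with PRKDC), MCM5 (2.88) and GINS2 (3.43) had peaks in clone 1 only, and GINS1 and GINS3 had none. Inside MCM5, clones 1 and 2 shared an overlapping peak at chr22:35410168-35410412 and chr22:35410100-35410204, with folds of 3.28 and 4.08.

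Of the 9 polymerase and primase genes, 7 had a peak in clone 1, 4 in clone 2 and 0 in clone 3. All genes had shares of 39.1%, 29.6% and 6.55%. In both clone 1 and clone 2, 4 (44.4%) had a peak, where 23.3% of all genes had one in at least 2 clones. POLA2, the accessory subunit of polymerase alpha, had folds of 3.44 and 3.96, from an implied 13 and 10 reads. POLD1, the catalytic subunit of polymerase delta, had 4.03 and 2.93, and shares its interval with NR1H2. POLD2, a delta accessory subunit, had 1.96 and 3.27, and its summits lay at −127 and −97 bp from the promoter-table start, which is 777 bp inside the annotated gene. POLE, the catalytic subunit of polymerase epsilon, had 4.48 and 3.22. POLA1, PRIM1 and PRIM2, the catalytic subunit of polymerase alpha and the 2 primase subunits, had peaks in clone 1 only, with folds of 3.28, 4.02 and 4.26. POLD3 and POLE2 had none.

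Of the 6 clamp and clamp loader genes, 5 had a peak in clone 1 and 2 in clone 2, where 39.1% and 29.6% of all genes had one. The 2 of 6 in clone 2 thus lay near the share of all genes. PCNA and RFC2 were the 2 (33.3%) with a peak in both, where 23.3% of all genes had one in at least 2 clones. PCNA held the strongest peak of the list, at chr20:5126515-5127203 in clone 1 with a −log10 q of 29.8, rank 19 of 14262, and an implied 141 reads over a background of 39.5. Its clone 2 peak at chr20:5126591-5126938 had a −log10 q of 16.2, and the folds were 3.51 and 3.35. CDS2 shares this interval, so the peak is not PCNA's alone. PCNA also had a peak at the inner start of its RefSeq promoter entries, chr20:5119360-5120239 in clone 1 (−log10 q 16.7) and chr20:5119933-5120157 in clone 2 (19.4), so the clone 2 peak inside the gene had the higher −log10 q. The clamp loader subunit RFC2 had folds of 2.08 and 3.09. Its clone 1 peak was among the weakest of that list, with a −log10 q of 2.29 at rank 12931 of 14262. RFC1, RFC4 and RFC5 had folds of 3.55, 4.03 and 3.98 in clone 1 only, and RFC3 had no peak.

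Of the 6 genes for single-strand binding, joining and topology, 4 had a peak in clone 1, 5 in clone 2 and 2 in clone 3. Among all genes the shares were 39.1%, 29.6% and 6.55%. In at least 2 clones, 4 (66.7%) had a peak, against 23.3% of all genes. Besides LIG1 and FEN1 these were RPA1, with folds of 2.98 and 4.22, and RPA2, with folds of 2.88 and 4.40, both subunits of the protein that coats single-stranded DNA. TOP2A, which untangles daughter strands, had a peak in clone 2 only, with a fold of 2.72. RPA3, the smallest subunit, had no gene-end peak, but clones 1 and 2 had overlapping peaks inside it at chr7:7640509-7640767 and chr7:7640516-7640717, with folds of 1.85 and 2.98.

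All 3 nucleotide supply genes had a peak in clone 1, 2 had one in clone 2 and 0 in clone 3. Shares over all genes were 39.1%, 29.6% and 6.55%. RRM1 and RRM2, the large and small subunits of ribonucleotide reductase, had folds of 3.19 and 4.67 and of 3.10 and 2.97. TYMS, thymidylate synthase, had a fold of 3.53 in clone 1 only. By role the share with a peak in at least 2 clones thus ran from 25.0% in licensing to 66.7% in the single-strand and nucleotide groups, against 23.3% of all genes. With 3 to 12 genes a group these shares rest on few genes, and the roles were not tested against each other.

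The peaks of the replication genes had more reads at the summit than those of other genes but no higher fold. The median implied pile-up was 33.0, 32.0 and 38.5 reads in clones 1, 2 and 3, against 27.0, 28.0 and 34.0 over all gene-end peaks, and the median local background was 9.51, 7.59 and 12.9 reads against 6.73, 6.90 and 10.9. The median −log10 q was 5.58, 7.26 and 2.91 against 5.17, 5.73 and 3.75, so it was higher at the replication genes in clones 1 and 2 and lower in clone 3. The median fold was 3.52, 3.38 and 2.86 over the 36, 28 and 4 peaks of clones 1, 2 and 3, against 3.54, 3.74 and 2.98 over all gene-end peaks of the same list. In clone 1, 17 of 36 peaks were above their list's median fold, in clone 2, 11 of 28, and in clone 3, 2 of 4. In clone 1 the median pile-up of the best peak was 21.0 reads at 11 genes with a peak in that clone only. It was 35.0 at 17 genes in 2 clones and 48.5 at 4 genes in 3 clones. The ranges overlapped, at 13 to 68, 13 to 141 and 21 to 56 reads. Clone 2 had medians of 33.0, 46.0 and 26.0 reads at 3, 17 and 4 such genes. With groups of 3 or 4 genes, no order can be read from these medians. Fold values come from each list's own background and are not compared between clones.

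**Figure D4:**
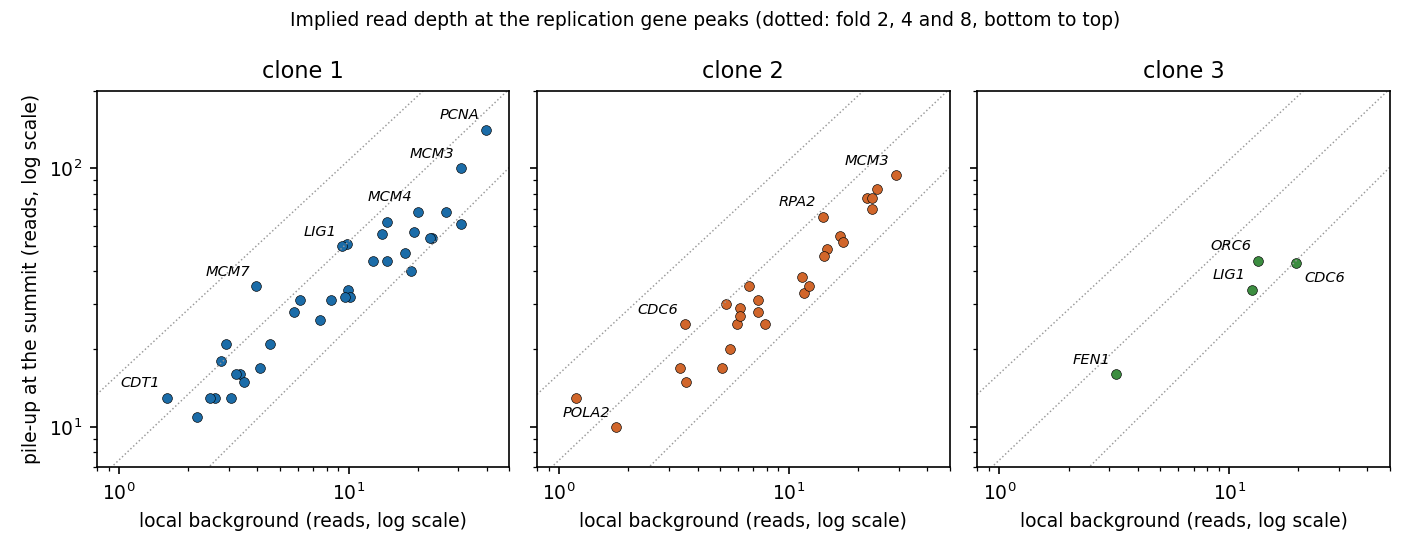
Reads at the summit against reads of local background, both implied by the deposited fold and −log10 p, on log scales, for each peak at the replication genes in the 3 clones, with dotted lines at folds of 2, 4 and 8. PCNA and MCM3 lie at the upper right of clone 1, and CDT1 and POLA2 rest on few reads at the lower left.

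Many of these peaks were also within 1000 bp of another protein-coding gene. This held for 12 of 32 replication genes in clone 1, 12 of 24 in clone 2 and 3 of 4 in clone 3, against 35.2%, 35.0% and 45.9% of all genes with a peak. Besides the neighbours named above these were TPRA1 at MCM2, AP4M1 at MCM7, UFD1 at CDC45, PXMP2 at POLE, RAB23 at PRIM2, SMYD4 at RPA1, RARS2 at ORC3 and MBD5 at ORC4.

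Where both clone 1 and clone 2 had a peak at a gene, the peaks overlapped at 19 of 21 replication genes, against 91.0% of 4446 genes in all. They overlapped at 4 of 4 genes for clones 1 and 3, against 98.1% of 1240, and at 3 of 4 for clones 2 and 3, against 89.7% of 1124. The exceptions were MCM6 and CDC45 for the former pair and FEN1 for the latter. Among the 38 genes with a strand in the promoter table, every gene with a peak had one at its 5′ end, in 28 of 28 genes in clone 1, 22 of 22 in clone 2 and 4 of 4 in clone 3, against 96.0%, 92.5% and 91.9% of all genes. Only MCM7 of these also had one at its 3′ end. Genes without a strand in that table were left out, among them GINS4, whose clone 2 peaks lay at the high-coordinate end only. The median summit position relative to the 5′ end was −103 bp in clone 1, −81.0 bp in clone 2 and −159.5 bp in clone 3, with negative values outside the gene.

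Counting only the stretch from 250 bases before to 50 after the start, 25, 21 and 4 of these 38 genes had a peak in clones 1, 2 and 3 (65.8%, 55.3% and 10.5%), against 34.0%, 23.3% and 5.30% of 15812 genes with such a stretch. For PRIM2, ORC1 and POLD2 the start taken lay 93265, 5080 and 777 bp inside the gene, so their stretches do not cover the gene's 5′ end. The clone 1 peak near the 5′ end of PRIM2 is thus not counted here, nor was that end searched for motifs. The clone 2 peaks of ORC4 and CDC45 lay over the stretch of another listed start and are not counted either. The stretches were searched on both strands for 5 motifs. An E2F-type match, TTCCCGC or TTGGCGC, was in 24 of 38 (63.2%), against 12.3% of all such promoters. A CCAAT box was in 22 (57.9%, against 36.4%) and a GC box, GGGCGG, in 27 (71.1%, against 58.3%), while the ETS-type CCGGAAG was in 5 (13.2%, against 14.1%) and the CHR-type TTTGAA in 2 (5.26%, against 12.2%). The median share of G and C bases was 65.3%, against 62.7% in all such promoters, and its bearing on these motif shares was not tested. TTGGCGC and CCAAT can share bases on opposite strands. The E2F-type match was in 11 of the 19 promoters of genes with peaks in 2 or 3 clones and in 13 of the 19 others, so it did not separate the genes with shared peaks from the rest. In the stretches shown, positions are counted from +1 at the start with no position 0. CDC6 had an E2F-type match at +9 and CCAAT boxes at −126, −103 and −50. LIG1 had an E2F-type match at −113 and GC boxes at −110, −32, −14 and −8. ORC6 had CCAAT boxes at −104 and −68, and FEN1 had none of the 5 motifs.

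A separate list of 51 other replication and S phase genes had a peak at 43, 29 and 8 genes in clones 1, 2 and 3, where 39.1%, 29.6% and 6.55% of all genes had one, and at 0 in the control lines. Of the 51, 28 (54.9%) had one in at least 2 clones, against 23.3% of all genes. A peak in all 3 clones was found at 6 of the 51, against 5.40% of all genes. POLD4, a small polymerase delta subunit, had folds of 3.61, 6.06 and 3.37 in clones 1, 2 and 3. RNASEH2A, which removes RNA from DNA, had 5.00, 4.37 and 6.19, and the topoisomerase TOP1 had 2.82, 5.61 and 2.75. RRM2B, another reductase subunit, had 2.66, 2.04 and 2.84. The histone chaperones CHAF1A and ASF1B had 2.26, 5.36 and 2.29, and 2.82, 4.47 and 2.88. These 6 genes fell in the polymerase, primer removal, nucleotide supply and chromatin assembly groups. All 4 fork proteins, 5 of 6 primer removal and topology genes and 5 of 6 further nucleotide genes were among the 28. So were 3 of 4 chromatin assembly genes, 2 of 3 further polymerase subunits, 1 of 2 helicase relatives and 1 of 4 other clamp loaders. These groups are small and were not tested against each other. The initiation genes, with 3 of 9, and the E2F and RB family genes, with 4 of 13 (E2F1, E2F3, E2F6 and TFDP1), lay not far from the 23.3% of all genes. CDC7, TOPBP1, MTBP, DSCC1 and E2F5 had no peak in any clone.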

How the data were processed

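ATAC-seq was deposited as 1 peak list per library, for 3 control lines and 3 ΔNSPs clones, with peaks called per library and not pooled. FastQC, Bowtie2, Picard and MACS2 and build GRCh38 are named per the submitters' processing notes. The sources used here give neither versions nor settings, nor any transposase offset. The deposited lists give, as the authors' values, a fold over local background (a linear ratio), −log10 p and −log10 q, an integer score and the summit offset. The smallest deposited −log10 q was 2.00 to 2.07.

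Rows that repeat an interval with another summit were collapsed to the summit with the highest −log10 q, and 127 negative offsets in clone 2 were set to 0. Genes came from a RefSeq gene table of assembly GRCh38.p14, and a peak counted from 1 shared base within 1000 bp of a gene end. A gene was called where 2 or more clone lists held a peak and the control lists none. Reads at the summit were solved from fold and −log10 p and came out whole, within 0.05 reads, for 100% of peaks. Peak presence was tested per gene by an exact two-sided permutation test with Benjamini-Hochberg adjustment at 0.05. Python 3.11.15, pandas 2.3.3, numpy 2.4.6, SciPy 1.17.1 and matplotlib 3.10.9 were used, and the overlap counting was tested on simulated data.

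By rule, values were given for replication genes called, for the 3 highest folds among genes in 1 clone, and for genes of the other list in all 3 clones. The other genes were named after their values were seen, including those with peaks inside the gene. The members, roles and lists were chosen with earlier results of these data known. Promoter stretches were at hand for 38 of the 44 genes, with the start nearest the gene's 5′ end taken where a gene has several, and no promoter stretch was analysed here for MCM4, GINS4, MCM5, POLD3, RPA2 and RPA3.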

Additional observations from a re-analysis of the deposited data

How the results depend on the processing

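The count of 21 replication genes with a peak in at least 2 clones (4652 of all genes, 28 of the other replication list) moved with the threshold and with the clones used. Asking for −log10 q of 5 or more gave 11 (all genes 2189, other list 13), all 3 clones 4 (1079 and 6), at least 1 clone 35 (9298 and 46), lists cut to 2188 peaks 4 (978 and 6) and a fold of 4 or more 1, FEN1 (833 and 5). At that fold the share, 2.27%, was below the 4.17% of all genes, so the excess over background was not seen there. Under the other settings listed the share was above that of all genes. Counts of 1 or 4 replication genes are too few to read a direction from, and no setting was tested against background. The promoter stretch alone gave 17 of 38 and 2990 of all genes. Leaving out 1 library gave 4 to 21 replication genes (all genes 1124 to 4652, other list 6 to 28): it was 4 without clone 1, 4 without clone 2 and 21 without clone 3 or any control line. Windows of 500 and 2500 bp and summits in place of peaks gave 20, 21 and 21. Counting peaks inside genes, chosen after RPA3, MCM5 and ORC1 were seen, gave 23, against 34.1% of all genes.

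By role, in the order licensing, helicase, polymerases, clamp, single-strand and joining, and nucleotide supply, the counts were 2, 7, 4, 2, 4 and 2. They were 2, 5, 0, 1, 2 and 1 at −log10 q of 5, 2, 0, 0, 0, 2 and 0 in all 3 clones, 5, 10, 7, 5, 5 and 3 in at least 1 clone, 1, 1, 0, 1, 1 and 0 with equally long lists, and 0, 0, 0, 0, 1 and 0 at a fold of 4. The helicase count on promoter stretches was 4 of 9. Leaving out 1 library gave ranges of 2 to 2, 0 to 7, 0 to 4, 0 to 2, 2 to 4 and 0 to 2.

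The labels number lines and clones 1 to 3 without tying them, and their pairing could not be checked because the control lists are nearly empty. With the replicate number as a block, 0 genes passed, as without it. Control lists of 2 to 13 peaks limit every comparison with the controls.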
